A study of Homo sapiens with 18 samples.

Results

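The genes described here are 6 of the 55765 in the deposited table: CNTNAP2, ABLIM1, TNFRSF19, POSTN, A2M and A1CF. They were chosen by their normalized counts in these libraries, for rises from DMSO to tazemetostat, so their change with the drug is given as a description, with no test. With DMSO, 5 of the 6 were near silent, at 0 to 10 reads in each of the 9 libraries. A1CF was not, since it had 33 to 102 reads in each DMSO library, and the name "near silent" does not hold for it. With tazemetostat, CNTNAP2, ABLIM1, TNFRSF19 and POSTN reached group means of 2009 to 20657 normalized counts in every line. A2M and A1CF reached 34.9 to 555 normalized counts.

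The samples were 18 cultures of G401, an established line from a malignant rhabdoid tumour, a childhood cancer driven by loss of the chromatin remodelling subunit SMARCB1. The WT line was edited with CRISPR/Cas9 at the AAVS1 safe harbour locus as a control and kept RB1, the retinoblastoma tumour suppressor gene. E1 and F2 each grew from 1 clone in which both RB1 alleles had been edited, so an effect of the RB1 edit and a property of that clone cannot be told apart. Each line was exposed for 11 days either to the solvent DMSO or to 10 µM tazemetostat, which gave 6 groups of 3 biological replicates. All 6 groups share the SMARCB1-deficient G401 background.

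Tazemetostat inhibits EZH2, the catalytic subunit of the Polycomb complex PRC2, which places a repressive methyl mark on histone H3 at silenced genes. In rhabdoid tumours, which lack a working SWI/SNF complex at many sites, EZH2 is the target of this drug. The genes encode proteins of unlike kinds. CNTNAP2 is a neurexin-family adhesion protein that helps to gather potassium channels at the juxtaparanodes of myelinated axons. TNFRSF19 (TROY) is an orphan receptor of the TNF receptor superfamily and a partner of the Nogo receptor in neurons. ABLIM1 carries LIM domains and binds actin filaments. POSTN (periostin) is a secreted matricellular protein with fasciclin domains. A2M is a secreted protease inhibitor made mostly by liver, and A1CF is an RNA-binding cofactor of the APOBEC1 enzyme that edits apolipoprotein B mRNA.

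The libraries held 25709489 to 39314860 recovered reads each. SMARCB1 had 0 reads in all 18 libraries, while the intermediate filament genes VIM, KRT8 and KRT18 had group means of 9035 normalized counts or more. RB1 transcript was 2565 to 2828 normalized counts in the WT DMSO libraries and 505 to 861 in those of the clones. EZH2 transcript fell with tazemetostat in WT, from means of 2478 to 876 normalized counts, and had means of 2649 to 3207 in the 4 groups of the clones. In bulk RNA, fewer cells with a transcript and less of it per cell cannot be told apart, and this holds for every level given below.

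The sequence before the transcription start is shown because RefSeq places unlike promoters before genes that rose together. RefSeq windows of 250 bases that end at the base before the start (build GRCh38.p14) were at hand for 11 starts of 5 of the genes. The reads had been aligned to hg19, so genes were matched by symbol and not by coordinate. In the lines below, read 5′ to 3′ on the gene's strand, CG pairs are in capitals. They are the windows of CNTNAP2 (chr7:146116551-146116800, plus strand), the ABLIM1 start that lies farthest upstream (chr10:114768305-114768554, minus strand), the 2 starts of TNFRSF19 (chr13:23570162-23570411 and chr13:23579110-23579359, plus strand) and A1CF (chr10:50885628-50885877, minus strand).
CNTNAP2: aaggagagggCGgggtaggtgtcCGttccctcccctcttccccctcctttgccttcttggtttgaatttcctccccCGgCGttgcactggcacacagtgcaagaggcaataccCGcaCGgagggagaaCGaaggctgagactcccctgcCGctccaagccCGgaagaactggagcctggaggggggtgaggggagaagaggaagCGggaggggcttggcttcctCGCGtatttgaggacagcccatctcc
ABLIM1 start 1: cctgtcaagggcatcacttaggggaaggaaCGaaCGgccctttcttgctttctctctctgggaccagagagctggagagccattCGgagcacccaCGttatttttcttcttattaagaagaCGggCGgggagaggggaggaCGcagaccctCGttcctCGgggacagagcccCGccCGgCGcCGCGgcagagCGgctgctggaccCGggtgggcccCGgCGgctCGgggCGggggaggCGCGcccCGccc
TNFRSF19 start 1: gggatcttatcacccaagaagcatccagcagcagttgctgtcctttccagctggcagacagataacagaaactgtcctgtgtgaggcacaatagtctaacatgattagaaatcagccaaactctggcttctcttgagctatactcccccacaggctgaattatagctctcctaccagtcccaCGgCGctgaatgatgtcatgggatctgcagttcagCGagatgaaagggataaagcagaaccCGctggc
TNFRSF19 start 2: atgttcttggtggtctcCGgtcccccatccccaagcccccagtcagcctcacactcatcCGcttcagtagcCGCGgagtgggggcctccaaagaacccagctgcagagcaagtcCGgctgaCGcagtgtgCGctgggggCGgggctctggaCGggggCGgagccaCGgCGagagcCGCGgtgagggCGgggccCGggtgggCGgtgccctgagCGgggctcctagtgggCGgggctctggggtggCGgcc
A1CF: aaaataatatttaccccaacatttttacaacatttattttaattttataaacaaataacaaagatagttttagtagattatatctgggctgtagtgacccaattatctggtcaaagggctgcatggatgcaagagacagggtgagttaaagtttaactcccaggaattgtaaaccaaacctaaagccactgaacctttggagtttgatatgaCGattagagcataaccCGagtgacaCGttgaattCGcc

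The window of CNTNAP2 had 12 CG pairs, against a median of 11 over 35116 RefSeq windows of the same length. ABLIM1 start 1 had 23 and TNFRSF19 start 2 had 20, more than 74.2% and 67.6% of windows. TNFRSF19 start 1 and A1CF had 4 each, and POSTN had 1. The other 5 starts of ABLIM1 had 5, 6, 1, 5 and 1. RefSeq thus places CG-rich and CG-poor windows before genes that had at most 10 reads in each DMSO library. These genes reached at least 1000 normalized counts on average with tazemetostat. The richest windows, of ABLIM1 start 1 and TNFRSF19 start 2, belong to genes that also have CG-poor starts. The first transcribed bases after ABLIM1 start 1 were not found in a GENCODE v29 transcript of the gene. Gene counts do not show which start of ABLIM1 or TNFRSF19 was read.

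For POSTN (chr13:37598769-37599018, minus strand) and the second start of ABLIM1 (chr10:114685004-114685253, minus strand), the capitals mark instead TATAAA, the letters of a TATA box, and TGANTCA, the letters that AP-1 factors bind.
POSTN: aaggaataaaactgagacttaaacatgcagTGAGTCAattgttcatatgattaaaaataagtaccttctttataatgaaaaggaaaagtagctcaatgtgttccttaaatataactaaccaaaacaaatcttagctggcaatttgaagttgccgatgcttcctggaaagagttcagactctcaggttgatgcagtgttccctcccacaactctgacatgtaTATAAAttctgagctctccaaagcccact
ABLIM1 start 2: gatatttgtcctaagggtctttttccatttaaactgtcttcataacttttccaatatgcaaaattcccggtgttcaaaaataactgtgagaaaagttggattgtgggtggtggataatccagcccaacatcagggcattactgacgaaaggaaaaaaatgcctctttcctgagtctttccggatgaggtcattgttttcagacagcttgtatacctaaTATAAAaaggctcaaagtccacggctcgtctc
On the printed strand, TATAAA began 29 bases before the start of POSTN and 32 bases before that of ABLIM1 start 2. The letters TGAGTCA began 220 bases before the start of POSTN. On either strand, 4 of the 11 windows held TATAAA: these 2, ABLIM1 start 4, and A1CF, where it began 205 bases before the start. POSTN and A1CF each held 2 matches, and matches on the other strand are not in capitals. Over all RefSeq windows, 10.7% held TATAAA on either strand and 6.57% held TGANTCA, which reads the same on both strands and is counted once. GGAATG, the letters that TEAD factors bind, was in 11.9% of windows and in none of the 11. These are matches of letters, not sites of binding.

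CNTNAP2, the adhesion protein, showed the highest counts with tazemetostat. In WT the 3 DMSO libraries had 8.73, 0 and 0.946 normalized counts, and the 3 tazemetostat libraries had 18735.5, 17245 and 16959. In E1 the values were 3.57, 0.965 and 0 with DMSO and 19536, 19997 and 22438 with tazemetostat. In F2 they were 0, 0 and 1.21 with DMSO and 12195.5, 11649 and 12431 with tazemetostat. WT replicate 1 alone held 10 of the 17 reads found in the 9 DMSO libraries, and no DMSO library came near a tazemetostat library. The ratio of tazemetostat to DMSO was 5246 in WT (95% counting interval 2932 to 10509.7) and 13179.8 in E1 (5647 to 40592.5). In F2 it was 33456, from 1 DMSO read, with an interval of 6004 to 1321470.0. Intervals are exact Clopper-Pearson ones on pooled reads and cover counting error only, not the spread between cultures, and PCR copies were not told apart.

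TNFRSF19, the orphan receptor, had 0 reads in 8 of the 9 DMSO libraries and 2 reads in the remaining one, F2 replicate 2. With tazemetostat it had 6977, 6832 and 6476 normalized counts in WT. In F2 it had 5409, 5288 and 5448, and in E1 1875, 1990.3 and 2161. The 3 E1 libraries lay far below those of the other lines. A count of 0 in the 3 WT DMSO libraries allows up to 3 reads among 106903164, or 0.0281 RPM (reads scaled to the library total), and in E1 up to 0.0284 RPM. Set against 3 reads over the group, its tazemetostat level was at least 7377-fold higher in WT and at least 2137-fold higher in E1. In F2 the ratio was 7441, from 2 DMSO reads, with an interval of 2059.6 to 61449.

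ABLIM1, the actin-binding LIM protein, had 0 to 4 reads in each DMSO library. With DMSO the normalized counts were 3.49, 3.77 and 1.89 in WT, 2.68, 0 and 0 in E1 and 1.02, 3.11 and 2.43 in F2. With tazemetostat they were 8132, 7603 and 7809 in WT, 10377.5, 10606 and 10920.0 in E1 and 9417, 9817 and 10481 in F2. Both clones lay above WT, and the ranges of E1 and F2 overlapped. The ratio of tazemetostat to DMSO was 2560 in WT (counting interval 1392 to 5339), 4568 in F2 (2099 to 12449) and 11292 in E1 (3864 to 54759). The E1 value rests on 3 DMSO reads.

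POSTN, the matricellular protein, had 1 read in 1 of the 3 DMSO libraries of each line and none in the other 6. With tazemetostat the normalized counts were 5725, 6685 and 5644 in WT, 11119, 10631 and 10958 in F2 and 4109.7, 4515 and 5058 in E1. The 3 F2 libraries were the highest and the 3 E1 libraries the lowest, with no overlap among the lines. The ratio of tazemetostat to DMSO was 30149.7 in F2, 19759.8 in WT and 14572 in E1, and each value rests on 1 DMSO read. Their counting intervals ran upward from 5411 in F2, 3546 in WT and 2615 in E1, to 575613 or more.

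A2M, the protease inhibitor, had 0 reads in all 9 DMSO libraries, which allows up to 0.0281, 0.0284 and 0.0336 RPM in WT, E1 and F2. With tazemetostat it had 209.9, 256 and 204 normalized counts in WT, 131, 89.8 and 111 in F2 and 36.2, 28.0 and 40.5 in E1. The 3 lines did not overlap, and E1 was the lowest. Against 3 reads over the group, A2M was at least 245-fold higher in WT, 102-fold in F2 and 37.1-fold in E1. An antisense gene, A2M-AS1, overlaps it and had at most 8 reads in any library, with a mean of 3.11 normalized counts in WT with DMSO and 0.41 with tazemetostat. Whether reads were counted by strand is not given in the sources used here.

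A1CF, the RNA-editing cofactor, started from the highest DMSO level of the 6 and rose least. With DMSO it had 51.5, 35.8 and 59.6 normalized counts in WT, 91.1, 69.5 and 63.3 in E1 and 34.8, 37.3 and 40.0 in F2. With tazemetostat it had 454, 457 and 496 in WT, 331, 342 and 354 in E1 and 533, 557 and 575 in F2. Every tazemetostat library lay above every DMSO library. The order of the lines was turned about, since E1 was highest with DMSO and lowest with tazemetostat, and F2 was lowest with DMSO, where its range overlapped that of WT, and highest with tazemetostat. The ratio of tazemetostat to DMSO was 9.53 in WT (counting interval 8.08 to 11.3), 4.57 in E1 (3.96 to 5.28) and 14.9 in F2 (12.2 to 18.4). ASAH2B overlaps A1CF on the other strand and had means of 125 to 150 normalized counts in the 6 groups. The overlap is of whole gene spans, and shared exons were not looked for. If strand was not used, reads from any shared stretch could not be told apart.

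**Figure D1:**
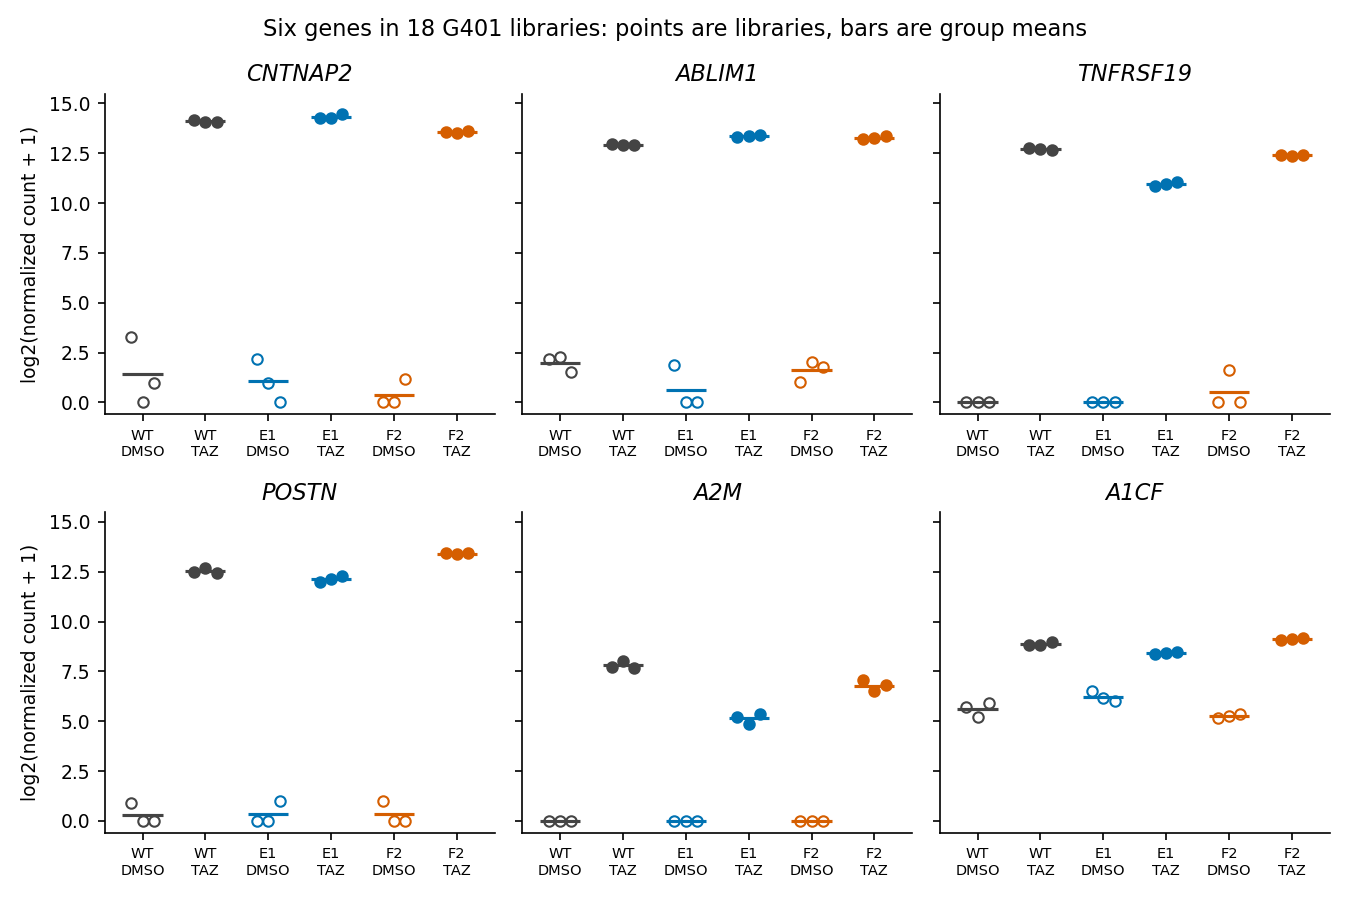
Level of each gene in the 18 libraries, as log2(normalized count + 1), by line and treatment; open points are DMSO libraries, filled points are tazemetostat libraries and bars are group means (n = 3). CNTNAP2, ABLIM1, TNFRSF19 and POSTN run from near 0 to between 10 and 15, A2M from 0 to between 4 and 9, and A1CF from between 5 and 7 to between 8 and 10.

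Levels can be set side by side between genes only per length. Divided by the merged exon length in GENCODE v29 and ranked among the 13574 tested genes with a length (84.0% of those tested), POSTN was the most abundant of the 6 in F2 with tazemetostat, at 3227 ± 73.6 normalized counts per kilobase (SD, n = 3), above 96.6% of genes. In WT, POSTN at 1781 ± 171 and CNTNAP2 at 1722 ± 93.1 per kilobase, above 91.7% and 91.2% of genes, lay within their spread. In E1 CNTNAP2 led, with 2016 ± 152 per kilobase, above 93.2% of genes. ABLIM1 was above 81.4% to 87.0% of genes in the 3 lines. TNFRSF19 was above 88.6% in WT and 86.5% in F2 but 64.0% in E1. A2M and A1CF stayed low, above 5.92% to 21.4% and 18.9% to 23.7% of genes. Thus 4 of the near-silent genes ended among the well-expressed transcripts, with TNFRSF19 in E1 lower, and A2M did not.

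The strongly raised genes were few among the silent ones. Of the 55765 genes, 40020 had a DMSO mean under 10 normalized counts in each line. Of these, 292 had a mean of at least 100 with tazemetostat in each line, 48 of at least 1000 and 2 of at least 10000. CNTNAP2, ABLIM1, POSTN and TNFRSF19 were among the 48, and CNTNAP2 was 1 of the 2, with ANKRD1, a nuclear cofactor of muscle, as the other. By the lowest group mean with tazemetostat, CNTNAP2 ranked 2, ABLIM1 4 and POSTN 8. ANKRD1, TENM3, NEDD4L, FN1, ALPK2, IGFBP7 and PALLD completed the first 10. TENM3 is a teneurin, an adhesion protein of neurons. FN1 (fibronectin) and IGFBP7 are secreted to the matrix, and PALLD binds actin as ABLIM1 does. By log2 change among 16154 tested genes, CNTNAP2 ranked 3, 2 and 2 in WT, E1 and F2, while A2M ranked 211, 671 and 376 and A1CF 1126, 1295 and 1063. These counts come from the contrast that chose the genes and describe it only.

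**Figure D2:**
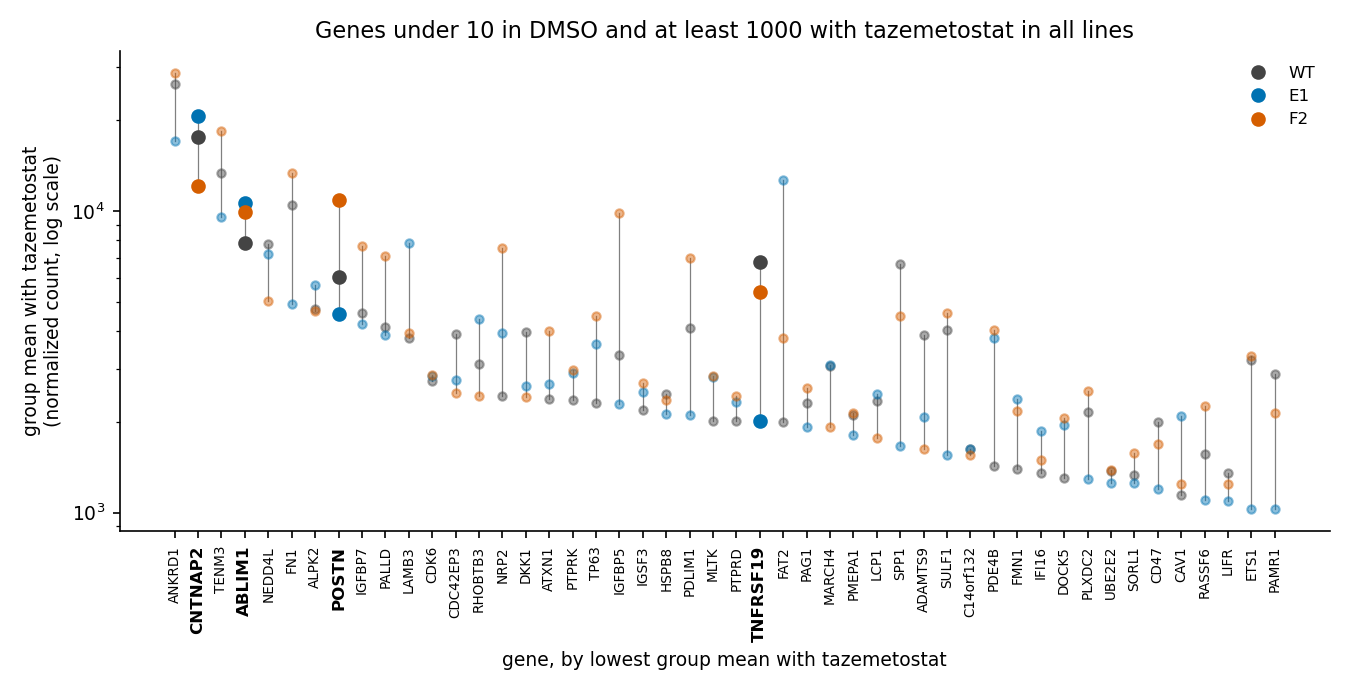
Group mean with tazemetostat, in normalized counts on a log scale, of the 48 genes with a DMSO mean under 10 and a tazemetostat mean of at least 1000 in each line, ordered by their lowest tazemetostat mean; points are the 3 lines and grey lines join them. CNTNAP2, ABLIM1, POSTN and TNFRSF19 are in bold; TNFRSF19 spans 2009 in E1 to 6762 in WT.

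Differences between lines were tested, since the choice of genes did not use them directly. They are not wholly free of it. CNTNAP2 had been named among the largest rises in all 3 lines, TNFRSF19 in WT, ABLIM1 in E1 and POSTN in F2, which favours a high level in that line. A2M and A1CF were also picked for rises, but in which line is not given here. Any lean that this choice put into their line differences has no known direction. limma was fitted to log2(normalized count + 1) of all 18 libraries, and a gene passed with a Benjamini-Hochberg adjusted p under 0.05 over all 16154 genes and a log2 difference of at least 1. The test measures the spread between the 3 cultures of a group. For genes that scatter near 0 with DMSO, this fit shares that scatter with the tazemetostat groups, so a fit on only the 6 libraries compared is given as well.

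Under tazemetostat, TNFRSF19 and A2M were lower in E1 than in WT, 2 of 6 genes, while 11.3% of all genes passed in this comparison and 5.95% passed as lower. TNFRSF19 in E1 was 29.7% of its WT mean, a log2 difference of -1.75 ± 0.28 (SE, limma adjusted p 4.65e-05). A2M in E1 was 15.6% of its WT mean, a log2 difference of -2.65 ± 0.22 (limma adjusted p 1.49e-08). For both, all 3 E1 libraries lay below all 3 WT libraries. Both entered the test only through their tazemetostat levels. TNFRSF19 had been picked for its rise in WT, which favours this direction. The other 4 genes did not pass. POSTN was 75.8% and A1CF 73.0% of WT, CNTNAP2 117% and ABLIM1 136%, and none of these ranges overlapped those of WT. On the 6 libraries alone the SE of CNTNAP2 went from 0.59 to 0.07 and the limma adjusted p from 0.771 to 0.0169, at the same log2 difference of 0.23. In that fit, too, the difference was under the fold limit, and TNFRSF19 and A2M passed with limma adjusted p of 4.12e-09 and 1.9e-07.

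In F2 against WT with tazemetostat, A2M passed, 1 of 6 genes where 12.3% of all genes did, at 49.5% of its WT mean and a log2 difference of -1.02 ± 0.22 (limma adjusted p 0.000768). This call sits at the fold limit, and without WT tazemetostat replicate 2 or F2 tazemetostat replicate 2 the difference was -0.92 or -0.88. POSTN, which had been picked for F2, was 181% of WT, with non-overlapping libraries. Its log2 difference was 0.86 ± 0.29 (limma adjusted p 0.0185), under the fold limit. CNTNAP2 was 68.5%, TNFRSF19 79.6%, ABLIM1 126% and A1CF 118% of WT. On the 6 libraries alone the difference of CNTNAP2 was -0.54 ± 0.05 (limma adjusted p 9.25e-08), against an SE of 0.59 over all 18.

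The clones differed from each other under tazemetostat in TNFRSF19, POSTN and A2M, 3 of 6 genes where 6.82% of all genes passed. All 3 were lower in E1, as were 4.43% of all genes. TNFRSF19 in E1 was 37.3% of its F2 mean (log2 difference -1.42 ± 0.28, limma adjusted p 0.000787), POSTN 41.8% (-1.26 ± 0.29, 0.00264) and A2M 31.6% (-1.63 ± 0.22, 1.54e-05). POSTN had been picked for F2, which favours this direction. A1CF was 61.7% of F2, with a log2 difference of -0.69 ± 0.16 (limma adjusted p 0.0024), under the fold limit. CNTNAP2 was 171% of F2, with a limma adjusted p of 0.332 over 18 libraries and 3.02e-07 over 6. ABLIM1 was 107% of F2 with overlapping ranges, a log2 difference of 0.10 ± 0.36 (limma adjusted p 0.849).

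The order of the lines with tazemetostat therefore varied from gene to gene. CNTNAP2 ran E1, WT, F2 from high to low, POSTN and A1CF ran F2, WT, E1, and TNFRSF19 and A2M ran WT, F2, E1. ABLIM1 ran E1, F2, WT, with E1 and F2 not separated. In these orders every other pair of neighbours had ranges that did not overlap. How often the ranges of other genes separated in this way was not counted. E1 was the highest line for CNTNAP2 and the lowest for TNFRSF19, POSTN, A2M and A1CF.

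**Figure D3:**
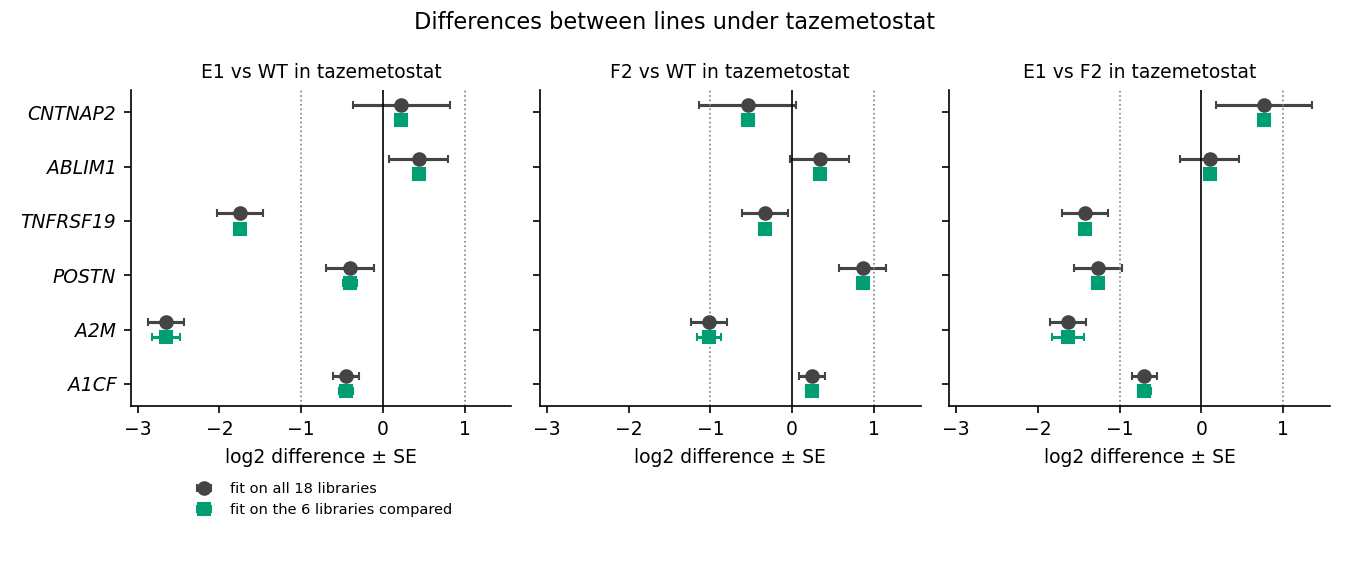
Log2 difference between lines with tazemetostat, with its SE, for each gene; circles are the fit on all 18 libraries, squares the fit on the 6 libraries compared, and dotted lines mark a log2 difference of 1. TNFRSF19 and A2M lie beyond -1 in E1 against WT, and A2M, at -1.02, touches the line in F2 against WT.

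With DMSO, line differences could hardly be read for the near-silent genes. ABLIM1 passed in E1 against WT, 1 of 6 genes where 5.04% of all genes did, with a log2 difference of -1.36 ± 0.36 (limma adjusted p 0.00982). That call compares 3 reads with 10. It did not hold without E1 DMSO replicate 2 (-1.05, limma adjusted p 0.055), on the 6 libraries alone (limma adjusted p 0.217, where 3.64% of all genes passed) or with edgeR, which tests the recovered reads by quasi-likelihood (adjusted p 0.148, with 4.92% of all genes called). By limma 0 of the 6 genes passed in F2 against WT and in E1 against F2, where 2.98% and 7.56% of all genes did, and 1 and 2 had an unadjusted p under 0.05. edgeR called 0 of the 6 in both (2.81% and 7.39% of all genes). DESeq2 called 0 in the former and A1CF in the latter (2.59% and 7.22% of all genes). A1CF, which had reads enough to compare, had a DMSO mean in E1 of 74.6 ± 14.6 normalized counts (SD, n = 3) against 49.0 ± 12.1 in WT and 37.4 ± 2.6 in F2. Its log2 difference was 0.96 ± 0.16 against F2 (limma adjusted p 9.9e-05) and 0.61 ± 0.16 against WT (limma adjusted p 0.00831), both under the fold limit. On the 6 libraries alone the limma adjusted p was 0.0201 against F2 and 0.2 against WT, so the difference from WT did not hold there. Every E1 library lay above every F2 and WT library.

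The response to tazemetostat, the log2 change in one line minus that in another, was tested as an interaction in the same limma fit. The genes were chosen for their rises with the drug, so these tests use the values that chose them and do not support the choice. A1CF was measured well above 0 in all 6 groups. Its response was smaller in E1 than in F2 by a log2 difference of -1.66 ± 0.22 (limma adjusted p 3.65e-05, edgeR 9.71e-06) and smaller than in WT by -1.06 ± 0.22 (limma adjusted p 0.00118, edgeR 0.000409). The latter fell below the fold limit, at -0.86 and -0.91, without WT DMSO replicate 2 or E1 DMSO replicate 1. In F2 the response exceeded that of WT by 0.59 ± 0.22 (limma adjusted p 0.0571), which did not pass. For A2M the response was smaller in E1 than in WT, in F2 than in WT and in E1 than in F2, with log2 differences of -2.65, -1.02 and -1.63, the differences already given at the tazemetostat level, since every DMSO library had 0 reads. TNFRSF19, which had been picked for WT and had 0 reads with DMSO in WT and E1, likewise gave -1.75 in E1 against WT. ABLIM1, which had been picked for E1, gave 1.80 ± 0.51 in E1 minus WT (limma adjusted p 0.0104, edgeR 0.0391). Of this, the DMSO difference of 3 reads against 10 made up 1.36 and the tazemetostat difference 0.44. The call was lost in DESeq2 (2.14, adjusted p 0.0674) and, at a log2 difference of 0.91, with a pseudocount of 5. POSTN, which had been picked for F2, had a smaller response in E1 than in F2, by -1.25 ± 0.41 (limma adjusted p 0.0487). The call for POSTN did not hold in edgeR (adjusted p 0.817) or with the replicate block (limma adjusted p 0.0523). It was also lost on leaving out any of 13 of the 18 libraries, namely each tazemetostat library, WT DMSO replicate 2, E1 DMSO replicate 3 and F2 DMSO replicates 2 and 3, with log2 differences of -0.92 to -1.33 and limma adjusted p of 0.0505 to 0.115. Without WT or F2 tazemetostat replicate 2, A2M in F2 minus WT gave -0.92 or -0.88 (limma adjusted p 0.0583 and 0.0648) and did not pass. edgeR, which models the reads, gave adjusted p of 1.0 for TNFRSF19 and A2M, where no DMSO reads exist on either side. It called 2, 0 and 1 of the 6 genes in E1 minus WT, F2 minus WT and E1 minus F2, and 8.52%, 5.96% and 4.18% of all genes. In all, 4, 1 and 3 of the 6 genes passed in E1 minus WT, F2 minus WT and E1 minus F2, where 10%, 7.48% and 5.81% of all genes did.

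Genes whose levels followed these most closely were found by the Pearson correlation of log2(normalized count + 1) over the 18 libraries. All 18 fall into a DMSO and a tazemetostat cluster, which sets most of the correlation, so it is a description and carries no p. Closest to CNTNAP2 were DCLK1, BEST3 and C1orf115 (r = 0.996, 0.996 and 0.995). Like CNTNAP2, DCLK1, a kinase of neuronal migration, was highest in E1 with tazemetostat, at a mean of 227 normalized counts, but F2 had 149.7 against 125 in WT. Closest to TNFRSF19 were ENPP2, C4orf19 and PAPPA (0.999, 0.998 and 0.997). ENPP2, which encodes autotaxin, a secreted enzyme that makes lysophosphatidic acid, ran WT, F2, E1 at 346, 185 and 126. Closest to POSTN were SH3TC2, STC1 and RAB27B (0.998 each), all with 0 reads in every DMSO library and highest in F2. Closest to A2M were AC020601.1, TNFSF15 and CIITA (0.998, 0.998 and 0.997). CIITA, the master activator of MHC class II genes, had means of 45.5, 25.5 and 9.30 in WT, F2 and E1. Closest to ABLIM1 were C14orf132, SOGA2 and ADAM23 (0.998, 0.997 and 0.996), and to A1CF NOS1, TFCP2L1 and ZNF462 (0.991, 0.991 and 0.988). A1CF had the fewest close followers, 2 genes above 0.99, against 33 for A2M and 82 to 235 for the other 4.

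The known relatives and partners of the 6 genes were taken from lists that leave out the genes themselves. With tazemetostat, 21.3% of all genes passed in WT, 17% in F2 and 15.1% in E1. In WT, E1 and F2 the median log2 change over all genes was 0.03, 0.02 and 0.02. Higher genes made up 14.5%, 11.3% and 13.3%, and lower genes 6.77%, 3.78% and 3.71%. Lists were counted and not tested as sets. A gene near 0 with DMSO was tested only if it was high with tazemetostat, so list counts and medians lean upward. Where a list held such genes, their number is given.

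Of 18 contactin-associated proteins, contactins and associates, the partners of CNTNAP2, 9 were tested and 9 had a mean under 10 over all libraries. In each line 4 rose, and 3, 2 and 2 fell in WT, E1 and F2. The 4 that rose, CNTN1, NFASC, NRCAM and KCNA2, had DMSO means under 10 and entered the test only through their tazemetostat levels, so this count is fixed by the filter. NRCAM, a cell adhesion protein of the nodes of Ranvier, had 0 reads in all 9 DMSO libraries and means of 153, 179 and 146 normalized counts with tazemetostat in WT, E1 and F2. CNTN1 rose from 0, 0.325 and 0 to 44.9, 46.0 and 16.4. LGI1, a secreted synaptic protein, and CNTNAP3, a paralog of CNTNAP2, fell in all 3. CNTNAP3 went from 1241, 1546 and 732 to 392, 166 and 142. CNTN2, the contactin that binds CNTNAP2 at axons, had at most 7 reads in any library.

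Actin-linked LIM proteins, the kin of ABLIM1, moved mostly up. Of 20 tested, 10, 10 and 9 rose, with list medians of 0.91, 0.81 and 0.71, and 3 of those that rose had DMSO means under 10. By limma 0 fell in each line, also by edgeR and DESeq2, and 1 lower gene per line had an unadjusted p under 0.05. Those that rose in all 3 lines were 7, among them ABLIM3, the nearest kin, which went from 1.86, 0 and 1.5 to 231, 171 and 273 normalized counts. PDLIM1 went from 0.314, 0.298 and 0.346 to 4087, 2112 and 7006. ZYX (zyxin), a focal adhesion protein already abundant with DMSO, rose by log2 changes of 1.95, 1.29 and 1.89, and FHL1 by 2.28, 3.01 and 3.40 (SE 0.09 to 0.13).

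Of 18 tested TNF receptor superfamily members and Nogo receptor partners, 7, 4 and 7 rose and TNFRSF13C alone fell, in WT, with list medians of 0.78, 0.24 and 0.36. Of those that rose, 2 had DMSO means under 10. In E1 and F2, limma, edgeR and DESeq2 called 0 as lower, and 2 and 0 lower genes had an unadjusted limma p under 0.05. TNFRSF21, TNFRSF11A, FAS and TNFRSF11B rose in all 3 lines. TNFRSF21, a death receptor of neurons, rose from 115, 30.4 and 69.5 to 9606, 6294 and 8897 normalized counts. FAS rose from 0.919, 8.62 and 0.341 to 587, 1701 and 795. The proteins that join TNFRSF19 or stand in for it at the Nogo receptor did not move as one. RTN4R, the Nogo receptor, went from 332 to 535 in WT, 444 to 367 in E1 and 367 to 461 in F2, and did not pass in any line. LINGO1, its co-receptor, was 473 to 991 in the 6 groups and did not pass either. NGFR (p75) rose in WT (log2 change 1.80 ± 0.20) and F2 (2.95 ± 0.20) and was 148 and 157 in E1, all from the limma fit.

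The matricellular proteins, the class of POSTN, were listed with partners of periostin such as FN1 and BMP1. Of 17 listed, 13 were tested, 10, 9 and 9 rose and THBS4 alone fell, in WT. Of those that rose, 6 had DMSO means under 10 and were tested only because they were high with tazemetostat. THBS2, LOX, STAB1 and STAB2, at means of 7.30 or less, were not tested. In E1 and F2, limma, edgeR and DESeq2 called 0 as lower, and 1 and 0 lower genes had an unadjusted limma p under 0.05. Those that rose in all 3 lines were 8. FN1 rose from 3.44, 6.01 and 2.58 to 10426, 4897 and 13386 normalized counts, SPP1 (osteopontin) from 1.23, 0 and 0 to 6646, 1666 and 4483, and SPARC from 507, 320.1 and 105 to 12162, 3739 and 10550. TGFBI, the paralog of POSTN, rose from 0, 0.325 and 0 to 287, 380 and 432. With tazemetostat, 8 of these 13 were lower in E1 than in WT, while 5.95% of all genes were lower. The 13 include the 6 that entered the test only through their tazemetostat levels, so the list and all genes are not alike in this. In F2 against WT with tazemetostat, 2 of the 13 were higher and 1 lower, while 12.3% of all genes passed in either direction. The same limit holds there. BMP1, a procollagen proteinase that interacts with periostin, was 843 to 1499 and did not pass in any line.

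Of 6 tested genes of the A2M family and its receptor, C3 rose in all 3 lines, from 30.6, 121 and 10.4 to 515, 524 and 881 normalized counts, by log2 changes of 4.05, 2.13 and 6.29, and C5 fell in WT. LRP1, the receptor that clears A2M, was 4121 to 8964 and did not pass. Of 5 tested genes of the APOBEC1 editing complex, limma, edgeR and DESeq2 each called 0 in every line, and 4, 0 and 2 had an unadjusted limma p under 0.05 in WT, E1 and F2. APOBEC1 had 0 reads in all 18 libraries. RBM47, which can act as its cofactor, was 1378 to 2767 normalized counts, with a log2 change in WT of 0.84, under the fold limit. APOB, the target of the enzyme, was too low to be tested, with no reads with DMSO and means of 29.9, 5.79 and 17.4 with tazemetostat.

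**Figure D4:**
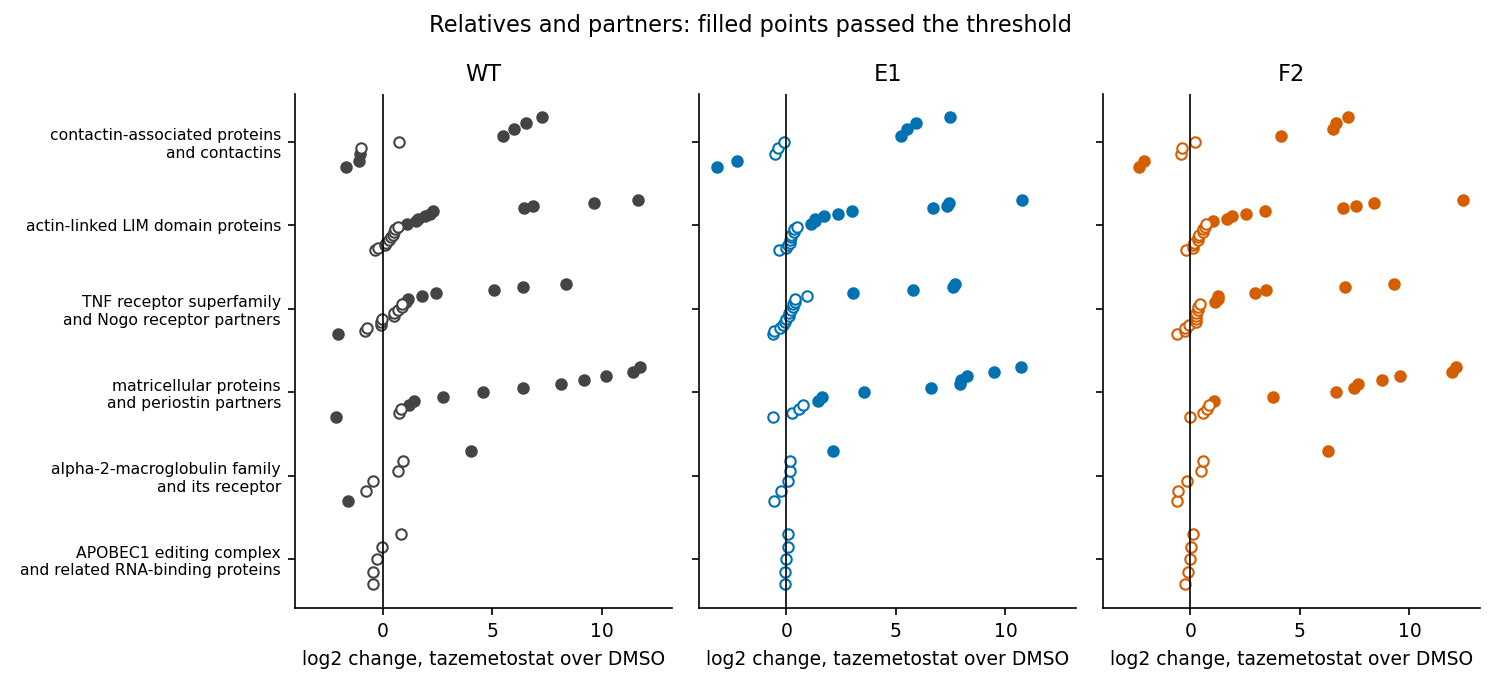
Log2 change with tazemetostat of every tested gene in 6 lists of relatives and partners, by line; each point is 1 gene, filled where it passed the threshold in the limma fit. FN1, in the matricellular list, lies at 11.42, 9.47 and 11.95 in WT, E1 and F2, while the APOBEC1 list spans -0.44 to 0.84. Genes near 0 with DMSO are shown only where tazemetostat levels let them be tested.

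Since CNTNAP2, A2M, A1CF and POSTN are known from brain, liver and connective tissue, markers of those tissues were read beside them. Their part in the levels above was not tested. In the hepatocyte, neuron, fibroblast and endothelial lists, 1, 1, 2 and 1 tested genes had DMSO means under 10. These, namely SERPINA1, SYT1, LUM, FAP and VWF, entered the test only through their tazemetostat levels. Their calls as higher in all 3 lines are therefore fixed by the filter. Of 8 hepatocyte markers, AHSG had at most 3 reads in any library and ALB at most 9, while SERPINA1 rose from 0, 0.325 and 0 to 341, 893 and 1086 normalized counts. APOA2 was also tested and passed as higher in WT only, with log2 changes of 1.16, -0.57 and 0.28 in WT, E1 and F2. The list summed to 9.46 to 26.8 with DMSO and to 357 to 1172 with tazemetostat, nearly all of it SERPINA1. Of 9 neuron markers, SNAP25 and ELAVL4 had at most 3 reads, while SYT1 and MAP2 rose in all 3 lines. TUBB3, which made up most of the sum, rose in WT and F2 and did not pass in E1. SYP was lower in each line, at log2 changes of -0.51, -0.77 and -0.69 (limma adjusted p 0.0012, 3.04e-05 and 9.09e-05), under the fold limit. The sum was 2817 to 8407 with DMSO and 6958 to 21078 with tazemetostat. Of 9 fibroblast markers, LUM, FAP and COL1A1 rose and COL3A1 fell in all 3 lines. COL1A2 passed as higher in WT and F2 and THY1 in WT, while PDGFRA passed as lower in E1 and PDGFRB in E1 and F2. DCN had at most 10 reads, and the sum went from 33722 to 44871 with DMSO to 16889.8 to 28381 with tazemetostat. The 5 endothelial markers summed to 4.10 to 13.4 with DMSO and to 39.7 to 77.7 with tazemetostat. The 6 leucocyte markers summed to at most 29.6 in any library, with PTPRC and CD3E at 3 reads or fewer.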

How the data were processed

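Poly(A) RNA from 18 G401 cultures was sequenced as 50-base read pairs with a stranded kit, per the labels' protocols. The submitters' processing notes name Trim Galore 0.4.4, STAR 2.6.0a, HTSeq, DESeq2 and build hg19. Strand use in counting and the annotation are not given in the sources used here. The deposited table holds a signal, gene counts that the authors divided by 1 factor per library (0.812 to 1.145), called normalized counts here. Multiplied back, 100% of values were whole reads (tolerance 1e-06), 25709489 to 39314860 per library. In F2 tazemetostat replicate 2 that factor lies too close to 1 for its steps to be told from rounding.

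Groups and replicate numbers came from the sample titles. The 6 genes and all lists were chosen with earlier results of these data known. limma 3.58.1 in R 4.3.3 (lmFit, eBayes with trend) was fitted to log2(value + 1) of the 16154 genes with a mean of at least 10, as 6 group means without a block. The threshold was a Benjamini-Hochberg adjusted p under 0.05 and a log2 difference of at least 1. Log2(value + 1) understates changes of low genes. An exact permutation test of 3 libraries against 3 cannot go below 0.1 and was not used.

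The recovered reads were also tested with DESeq2 1.42.0 and, by quasi-likelihood after TMM scaling, with edgeR 4.0.16, and the scripts were tested on simulated counts. Other alternatives were pseudocounts of 0.5 and 5, no filter or a mean of 50, no fold limit, 2 other scalings, only the compared libraries, a replicate block and leaving out each library. Same-numbered libraries shared deviations above a correlation of 0.1 in every pair in F2 against WT with DMSO (0.108 to 0.375) and in no other comparison of 2 groups. Ratios of tazemetostat to DMSO used pooled reads with exact 95% intervals, and 3 reads over a group where DMSO had none.

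Partners named singly were fixed per gene. From each list the 3 genes of highest mean that passed in the same direction in all lines were named, as were the 3 genes most correlated with each of the 6 and the first 10 genes that went from means under 10 to at least 1000 in each line. Others were named after their values were seen: KCNA2, NFASC and TNFRSF11B to complete a count, C5, TNFRSF13C and THBS4 as lone falls, and single markers. Of the fixed markers, 1 was left out of the lists and is not reported here. Promoter sequences are RefSeq's, lengths GENCODE v29's, and A2M had no promoter entry. Figures were drawn with matplotlib 3.10.9.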

Additional observations from a re-analysis of the deposited data

Results flagged for a closer look

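By limma's test of the response difference between lines, 8 cases passed among the 6 genes. The genes had been chosen for their rises with the drug, so these tests use the values that chose them and only describe the response. ABLIM1 had been picked for E1, TNFRSF19 for WT and POSTN for F2, which favours the directions given below for them. The 8 cases were 4, 1 and 3 of the 6 genes in E1 minus WT, F2 minus WT and E1 minus F2. There 10%, 7.48% and 5.81% of all genes, not so chosen, passed. E1 minus WT gave log2 differences of 1.80 for ABLIM1, -1.75 for TNFRSF19, -2.65 for A2M and -1.06 for A1CF. F2 minus WT gave -1.02 for A2M. E1 minus F2 gave -1.25 for POSTN, -1.63 for A2M and -1.66 for A1CF. Of the 8, edgeR on the recovered reads called 3, namely ABLIM1 and A1CF in E1 minus WT and A1CF in E1 minus F2. DESeq2 did not call ABLIM1 (adjusted p 0.0674). For A2M in all 3 comparisons and TNFRSF19 in E1 minus WT, the DMSO libraries held 0 reads, so these 4 restate the difference between lines with tazemetostat, and edgeR gave adjusted p of 1.0. The same genes passed in edgeR as differences between lines with tazemetostat, with adjusted p of 6.89e-11 for TNFRSF19 and 7.23e-08 for A2M in E1 against WT.

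For A1CF the order of the clones turned about: E1 stood above F2 with DMSO (log2 difference 0.96 ± 0.16, limma adjusted p 9.9e-05) and below it with tazemetostat (-0.69 ± 0.16, limma adjusted p 0.0024), in 3 of 3 libraries each. Neither difference reached the fold limit of 1, and their difference did.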

How the results depend on the processing

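The 3 cultures of a group set the precision, and near 0 reads depth does. A count of 0 over a DMSO group allows a level of up to 0.0281 to 0.0336 RPM. Of 54 line and response results of the 6 genes, all kept their direction and side of the threshold with a filter at a mean of 50 and 53 did with TMM scaling. Causes of the changes below were not tested, except that looser filters and no fold limit admit more genes by construction. Scaling to the same total shifted the median of all genes by -0.151 (WT, tazemetostat against DMSO), 0.146 (F2 against WT with tazemetostat) and 0.123 (response, F2 minus WT). The share of higher calls went there from 68.2% to 57.9%, from 59.5% to 71.4% and from 64.5% to 75.6%. Relative to that shift, POSTN in F2 against WT with tazemetostat passed (1.01, limma adjusted p 0.0089), A2M did not (-0.87), and A1CF's response in E1 minus WT (-0.98) did not.

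Genes called with tazemetostat in WT, E1 and F2 numbered 3436, 2434 and 2745. They were 5720, 4082 and 4698 without a filter and 10367, 7554 and 8438 without a fold limit, and at a mean of 50 E1 and F2 gave 1550 and 1768. For lines with DMSO (E1 against WT, F2 against WT, E1 against F2) 814, 481 and 1222 became 3740, 3260 and 5997 without a fold limit, and the first and last became 504 and 792 at a mean of 50. With tazemetostat 1833, 1984 and 1101 became 3130, 3273 and 2001 without a filter, 1139, 1230 and 605 at a mean of 50 and 8373, 8573 and 5575 without a fold limit. Responses, 1616, 1208 and 938, became 5720, 4344 and 2384 without a fold limit, and E1 minus F2 became 605 at a mean of 50.

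Of the 6 genes, E1 against WT with DMSO called 1, but 0 with a pseudocount of 5, with the 6 libraries alone, in edgeR and in DESeq2, and 2 without a fold limit. E1 against F2 with DMSO called 0, but 1 with a pseudocount of 0.5, the same total or DESeq2, and 2 without a fold limit. F2 against WT with tazemetostat called 1, but 0 with a pseudocount of 5 and 2 without a fold limit. Response calls in E1 minus WT went from 4 to 2 in edgeR and 1 in DESeq2. Those in F2 minus WT went from 1 to 0 with a pseudocount of 5, no filter, the same total, edgeR and DESeq2. Those in E1 minus F2 went from 3 to 1 in edgeR and DESeq2 and to 2 with TMM scaling, no filter, a pseudocount of 0.5 or only the libraries compared.

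Leaving out each library in turn gave 3420 to 3505, 2387 to 2454 and 2715 to 2806 genes with tazemetostat in WT, E1 and F2. Lines with DMSO gave 797 to 855, 456 to 511 and 1215 to 1271, lines with tazemetostat 1809 to 1896, 1892 to 2094 and 1017 to 1209, and responses 1509 to 1903, 1077 to 1282 and 827 to 1067. Of the 6 genes, each DMSO comparison called 0 to 1, lines with tazemetostat 2, 0 to 1 and 3, and responses 3 to 4, 0 to 3 and 2 to 4. Calls gained with DMSO were CNTNAP2 in F2 against WT (-1.74, without WT replicate 2), ABLIM1 in E1 against F2 (-1.61 without E1 replicate 1, -1.28 without F2 replicate 1) and A1CF there (1.01 to 1.07, without E1 replicate 2 or 3 or F2 replicate 3). Responses gained were TNFRSF19 (-1.14, without F2 DMSO replicate 1 or 3) and POSTN (1.16, without F2 DMSO replicate 1) in F2 minus WT, and ABLIM1 (1.72, without E1 DMSO replicate 1) and TNFRSF19 (-1.42, without F2 DMSO replicate 2) in E1 minus F2.

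Directions turned only in differences that rest on a few DMSO reads. CNTNAP2 in E1 against WT with DMSO ranged from -1.07 to 0.58 over the libraries left out, and turned to 0.58 without WT replicate 1 and 0.17 without E1 replicate 3. POSTN with DMSO turned to -0.13 (without WT replicate 2 or 3) and -0.30 (without E1 replicate 3) in E1 against WT. It turned to -0.11 (without WT replicate 2 or 3) and -0.30 (without F2 replicate 1) in F2 against WT, where it reached 0.34 without WT replicate 1, and to 0.15 (without E1 replicate 1 or 2) and 0.33 (without F2 replicate 1) in E1 against F2, where it reached -0.34 without E1 replicate 3. The CNTNAP2 response turned to -0.35 (E1 minus WT) and -0.45 (F2 minus WT) without WT DMSO replicate 1, and to -0.0795 in the latter with a pseudocount of 5. Without WT DMSO replicate 2 these were 1.29 and 1.20. In E1 minus F2 it turned to -0.16 with a pseudocount of 0.5, -1.03 in edgeR, -1.24 in DESeq2, -0.43 without E1 DMSO replicate 3 and -0.29 without F2 DMSO replicate 3, and was 0.67 without E1 DMSO replicate 1. The TNFRSF19 response in E1 minus F2 turned to 1.36 in edgeR and 0.63 in DESeq2.

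With the replicate number as a block, genes called were 3444, 2434 and 2750 with tazemetostat, 818, 481 and 1225 between lines with DMSO, 1844, 2000 and 1108 with tazemetostat, and 1635, 1243 and 935 as responses. The block kept 53 of 54 results of the 6 genes and lost POSTN's response in E1 minus F2, which left 2 calls there in place of 3. Mean correlations of same-numbered libraries were -0.091 to 0.222, with 0.154 (pairs 0.05 to 0.315) for tazemetostat against DMSO in WT. Whether same-numbered libraries share more than a number is not settled by these correlations.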
